A study of Bos taurus with 18 samples.

Results

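The 8 genes described here encode parts of the renin-angiotensin system and the peptidases that trim its peptides: the precursor AGT, the peptidases ACE, ENPEP, ANPEP and MME, and the receptors AGTR1, AGTR2 and MAS1. They were taken by symbol from the array's probe-gene table, with the brightest cluster (the summary of the probes of 1 transcript region) standing for a gene, and all 8 were found among 18010 named genes. Expression was measured in 4 compartments of the ovary of non-pregnant cows. The theca, the steroid-producing wall of the follicle, came from healthy small antral follicles of less than 5 mm by dissection, and each of its 6 arrays stands for 1 follicle of 1 animal. Interstitial stroma, stroma close to follicles and the tunica albuginea, a fibrous sheath beneath the surface of the ovary, were collected by laser microdissection of frozen cortex sections 10 µm thick. These have 4 arrays each, of material pooled from different animals. The labels state neither age nor cycle stage, nor how many animals made up a pool. Theca RNA was extracted with another kit and was never cut by laser, so whenever theca is compared, tissue, pooling, collection and kit cannot be told apart. All RNA was amplified with 1 whole-transcriptome system before labelling.

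Angiotensinogen, the product of AGT, is cut to angiotensin I, which ACE turns into the vasoactive peptide angiotensin II. Glutamyl aminopeptidase (ENPEP) then removes the first residue to give angiotensin III, and alanyl aminopeptidase (ANPEP, also CD13) removes the next to give angiotensin IV. Neprilysin (MME, also CD10) makes angiotensin 1-7 from angiotensin I and breaks down many other small peptides. AGTR1 carries the contractile and growth-related effects of angiotensin II, AGTR2 often opposes them, and MAS1 is the receptor of angiotensin 1-7. The mammalian ovary holds such a system of its own, separate from that of the circulation.

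Values are log2 signals with 1 decimal, and every array had a median of 4.1 over all clusters. The table gives no detection call, so a value at or below 4.1 can be background. AGT, MME and MAS1 were at or below this median on all 18 arrays, AGTR1 was above it on all 18, and ACE, ENPEP, ANPEP and AGTR2 were above it on 16, 12, 15 and 6 arrays. Levels are set side by side only within a gene, since probes differ in brightness. In bulk tissue, fewer cells of a type and less RNA per cell cannot be told apart.

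Marker genes were checked against the labels. The 5 measured theca markers (LHCGR, INSL3, CYP17A1, CYP11A1 and HSD3B1) had a mean level of 8.9 to 10.06 on the theca arrays and 2.88 to 3.4 on all others, where each gene's compartment mean was below 4.1. Other cell types also moved with the compartments. The mean of 11 endothelial markers lay between 6.05 and 6.41 in theca, 4.4 and 5.45 in interstitial stroma, 4.23 and 4.79 in stroma close to follicles, and 4.03 and 4.23 in tunica albuginea. The mean of 10 smooth muscle and pericyte markers was 5.67, 6.11, 5.92 and 5.5 in the same order, and that of 8 granulosa markers was 5.44, 4.0, 4.06 and 4.03, although the aromatase gene CYP19A1 was below 4.1 on every array. The mean of 9 oocyte markers reached 3.9 to 5.33 in stroma close to follicles and 3.54 to 4.08 in interstitial stroma. It stayed between 3.0 and 3.24 in theca and tunica albuginea. Of 10 immune markers, 4 were higher in theca than in the average of the other compartments (19.6% of all clusters) and none lower (22.2%). The part of these cells in the results below was not tested, and marker levels stand beside some results only as description.

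ENPEP and ANPEP were lower in theca than in each laser-captured compartment, by limma with Benjamini-Hochberg adjustment over all 26773 clusters and a threshold of 0.05 on the adjusted p. No other member passed in any comparison of 2 compartments. The count was 2 of 8 members against interstitial stroma, stroma close to follicles, tunica albuginea and the mean of these 3 (the laser-captured mean). Of all clusters, 28.9%, 31.1%, 34.4% and 41.9% passed in these comparisons, of which 14.6%, 15.6%, 18.1% and 22.2% were lower in theca and 14.4%, 15.4%, 16.3% and 19.6% higher. The members' share of 25% was thus no larger than that of clusters at large. Their median difference between theca and the laser-captured mean was -0.13 log2 units, with -0.04 over all clusters. The F test over all 4 compartments passed for 3 members, ENPEP, ANPEP and AGTR1, which is 37.5% of members against 36.4% of clusters.

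**Figure D1:**
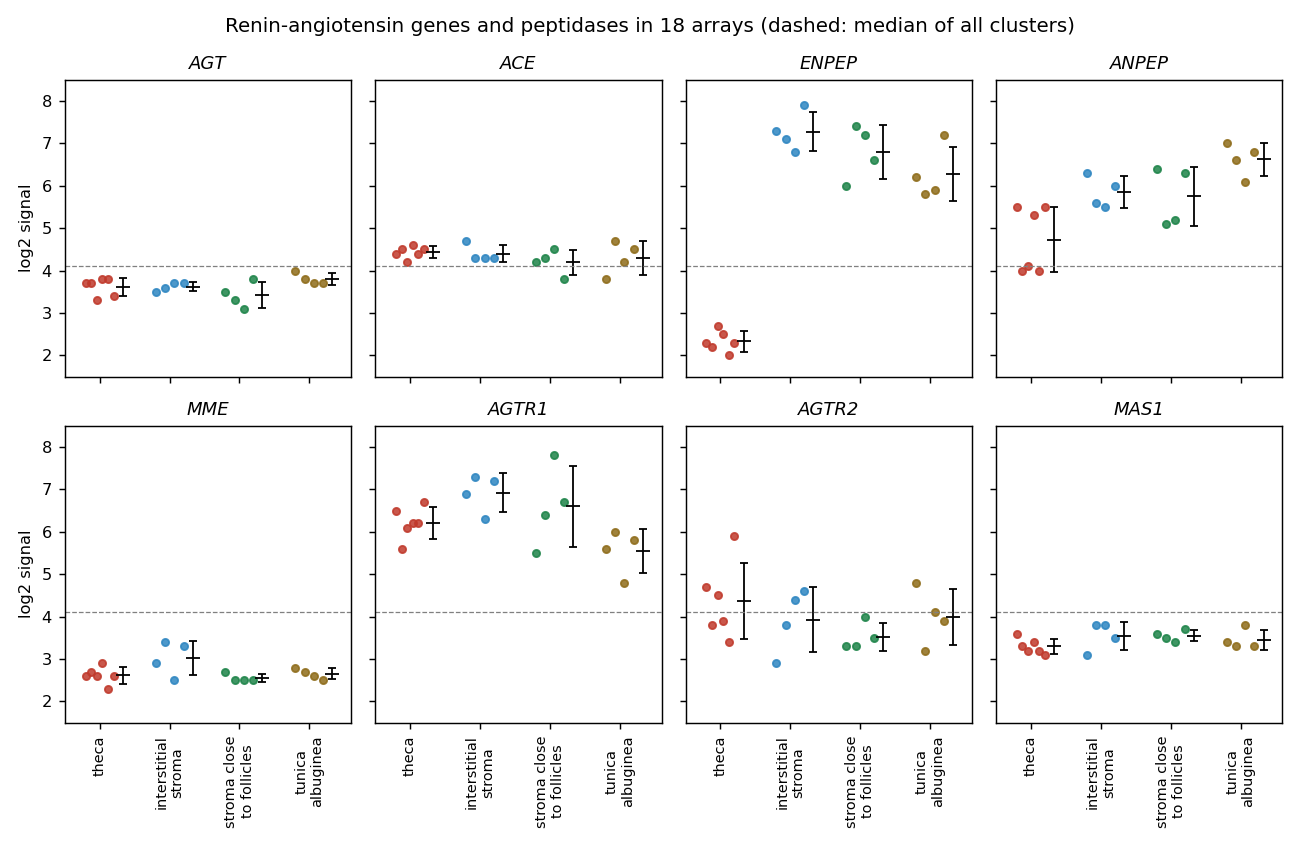
Log2 signal (vertical axis) of each of the 8 genes on 18 arrays, grouped by compartment (horizontal axis). Points are arrays, bars beside them are the mean ± SD of the compartment (n = 6 for theca, n = 4 for the others), and the dashed line is the median of all clusters, 4.1. ENPEP lies between 2.0 and 2.7 in theca and between 5.8 and 7.9 elsewhere, and AGT, MME and MAS1 stay at or below the line on every array.

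The substrate came first in the pathway and was dim everywhere. AGT (Entrez Gene 527114) had means of 3.62 ± 0.21 (SD, n = 6) in theca, 3.63 ± 0.10 (SD, n = 4) in interstitial stroma, 3.43 ± 0.30 (SD, n = 4) in stroma close to follicles and 3.8 ± 0.14 (SD, n = 4) in tunica albuginea. All 18 values lay between 3.1 and 4.0. The widest gap, tunica albuginea minus stroma close to follicles, was 0.38 ± 0.15 log2 units (SE, limma adjusted p = 0.22). Its 95% interval was 0.06 to 0.69. ATP6AP2, the prorenin receptor and an accessory subunit of the vacuolar proton pump, comes from the lists of related genes and was bright on every array. Renin, listed with it, was not measured. ATP6AP2 was higher in theca (8.15 ± 0.31, SD, n = 6) than in the mean of the other compartments by 0.62 ± 0.14 (SE, limma adjusted p = 0.0023). Against tunica albuginea alone the difference of 0.425 did not pass.

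ACE (Entrez Gene 509484), the peptidase that makes angiotensin II, stayed close to the array median in all compartments. Its brighter cluster read 4.4, 4.5, 4.2, 4.6, 4.4 and 4.5 on the theca arrays, and 4.7, 4.3, 4.3 and 4.3 in interstitial stroma. The values were 4.2, 4.3, 4.5 and 3.8 in stroma close to follicles, and 3.8, 4.7, 4.2 and 4.5 in tunica albuginea. All 4 groups overlapped, and the difference between theca and the mean of the others was 0.13 ± 0.13 (SE, limma adjusted p = 0.43), with a 95% interval of -0.13 to 0.40. ACE was the only member with a second cluster, and its clusters agreed in direction but not in the call. The second was below 4.1 on every array and higher in theca (3.2 ± 0.28, SD, n = 6) than in the mean of the others (2.68) by 0.53 ± 0.14 (SE, limma adjusted p = 0.005). It passed against interstitial stroma (0.63 ± 0.18, limma adjusted p = 0.013) and tunica albuginea (0.58 ± 0.18, limma adjusted p = 0.018), but not against stroma close to follicles (0.38 ± 0.18, limma adjusted p = 0.12). With both clusters averaged, ACE passed as higher in theca than the mean by 0.33 log2 units (limma adjusted p = 0.017). Whether ACE passed, and by how much theca was higher, therefore depends on which probes are read. Markers of endothelial cells, known for ACE at their surface, were higher in theca than in the laser-captured mean in 9 of 11 cases. Of all clusters, 19.6% passed as higher in this comparison. The endothelial mean was 5.1 in interstitial stroma and 4.14 in tunica albuginea, and the brighter ACE cluster had means of 4.4 and 4.3 there. The part of endothelial cells in the ACE levels was not tested.

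ENPEP (Entrez Gene 504350), the aminopeptidase that takes angiotensin II to angiotensin III, separated theca from all other arrays. The 6 theca arrays read 2.3, 2.2, 2.7, 2.5, 2.0 and 2.3, which is far below the median signal. Interstitial stroma read 7.3, 7.1, 6.8 and 7.9, stroma close to follicles 6.0, 7.4, 7.2 and 6.6, and tunica albuginea 6.2, 5.8, 5.9 and 7.2. No theca value came within 3 log2 units of any laser-captured value, whereas the 3 laser-captured groups overlapped with one another. Theca was lower than interstitial stroma by 4.94 ± 0.29 log2 units, a 30.7-fold difference of signal (SE, limma adjusted p = 1.4e-09). Against stroma close to follicles the signal was 22.1-fold lower (log2 difference -4.47 ± 0.29, SE, limma adjusted p = 4.6e-09), and against tunica albuginea 15.4-fold lower (-3.94 ± 0.29, SE, limma adjusted p = 1.6e-08).

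These folds rest on a theca signal that background can give, so they say where the fitted signals lie and not how much transcript the theca holds. With all values under 4 set to 4, a level close to the median, ENPEP was still 6.88-fold lower in theca than in the mean of the other compartments (log2 difference -2.78 ± 0.23, SE, limma adjusted p = 4.5e-07). Of the 10 smooth muscle and pericyte markers, 5 were lower in theca than in the laser-captured mean by limma and 4 higher. Over all clusters, 22.2% were lower and 19.6% higher in this comparison. MYH11, CNN1 and DES, genes of the contractile apparatus of smooth muscle, had means of 7.28, 4.95 and 4.27 in theca and of at least 9.43, 6.78 and 6.1 in each other compartment, a step in the same place as that of ENPEP. The pericyte gene RGS5 was higher in theca (8.23 against 5.08). Fibroblast markers were bright everywhere but also differed between compartments. Of the 6, 2 were higher and 3 lower in theca than in the laser-captured mean, among them PDGFRA with 8.3 in theca and 9.33 to 9.6 elsewhere. The part of these cells in the ENPEP result was not tested.

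Among the laser-captured compartments, ENPEP had its highest mean in interstitial stroma (7.28 ± 0.46, SD, n = 4), then stroma close to follicles (6.8 ± 0.63, SD, n = 4) and tunica albuginea (6.28 ± 0.64, SD, n = 4). Neither step exceeded the spread (0.48 ± 0.32, SE, limma adjusted p = 0.77 and 0.53 ± 0.32, SE, limma adjusted p = 0.47). Tunica albuginea was below interstitial stroma by 1.0 ± 0.32 (SE, limma adjusted p = 0.15). One tunica albuginea array, replicate 4 at 7.2, lay inside the range of interstitial stroma, and without it the difference was -1.31 with limma adjusted p = 0.034.

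ANPEP (Entrez Gene 404191), which acts on the product of ENPEP and on many other peptides, was also lower in theca, by less. Theca read 5.5, 4.0, 4.1, 5.3, 4.0 and 5.5, so that 3 arrays were at or below the median signal and 3 were well above it. The mean of all 8 granulosa markers was 5.9, 5.2, 5.5, 5.4, 5.2 and 5.5 on the same 6 arrays. The part of granulosa cells was not tested. Interstitial stroma read 6.3, 5.6, 5.5 and 6.0, stroma close to follicles 6.4, 5.1, 5.2 and 6.3, and tunica albuginea 7.0, 6.6, 6.1 and 6.8. Theca overlapped with both kinds of stroma and not with tunica albuginea.

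Against the laser-captured mean, ANPEP was 2.53-fold lower in theca (log2 difference -1.34 ± 0.28, SE, limma adjusted p = 0.00079). The difference from tunica albuginea was -1.89 ± 0.36 (SE, limma adjusted p = 0.00052), and both of these held with any 1 array left out. The differences from interstitial stroma (-1.12 ± 0.36, SE, limma adjusted p = 0.026) and stroma close to follicles (-1.02 ± 0.36, SE, limma adjusted p = 0.039) did not. Against interstitial stroma, the limma adjusted p was 0.056, 0.056 and 0.058 without theca replicates 2, 3 and 5, and 0.087 and 0.063 without interstitial stroma replicates 1 and 4. Against stroma close to follicles it was 0.081, 0.081 and 0.083 without theca replicates 2, 3 and 5, and 0.14 and 0.13 without replicates 1 and 4 of that stroma.

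The order of ANPEP levels was tunica albuginea (6.63 ± 0.39, SD, n = 4), interstitial stroma (5.85 ± 0.37, SD, n = 4), stroma close to follicles (5.75 ± 0.70, SD, n = 4) and theca (4.73 ± 0.77, SD, n = 6). Tunica albuginea exceeded interstitial stroma by 0.78 ± 0.39 (SE, limma adjusted p = 0.43) and stroma close to follicles by 0.88 ± 0.39 (SE, limma adjusted p = 0.28), within the spread of the arrays. ENPEP and ANPEP thus shared their lowest compartment but differed in which laser-captured compartment had the highest mean. That difference in order was not tested. Tunica albuginea also exceeded interstitial stroma in 4 of 6 fibroblast markers and stroma close to follicles in 5 of 6, and the part of fibroblasts in the ANPEP levels was not tested.

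MME (Entrez Gene 536741), the neprilysin gene, read between 2.3 and 3.4 on all 18 arrays. Interstitial stroma read 2.9, 3.4, 2.5 and 3.3, and theca read 2.6, 2.7, 2.6, 2.9, 2.3 and 2.6. These overlapping groups differed by -0.41 ± 0.15 log2 units (theca minus interstitial stroma, SE, limma adjusted p = 0.054). The call depended on single arrays and on the setting. Without interstitial stroma replicate 3, the array at 2.5, the difference was -0.58 (limma adjusted p = 0.0048), and without theca replicate 4 it was -0.47 (limma adjusted p = 0.034). It also passed under 3 other settings given at the end. With values under 4 set to 4 there was no difference, since every value lies below that floor. MME is widely used as a marker of endometrial and other stromal cells in human tissue, and no compartment here had a signal above the array median for it.

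AGTR1 (Entrez Gene 281607), the main angiotensin II receptor, was the only member above the median signal on every array. Theca read 6.5, 5.6, 6.1, 6.2, 6.2 and 6.7, and interstitial stroma 6.9, 7.3, 6.3 and 7.2. Stroma close to follicles spread most, at 5.5, 6.4, 7.8 and 6.7, and tunica albuginea was lowest at 5.6, 6.0, 4.8 and 5.8. Interstitial stroma and tunica albuginea did not overlap, and every other pair of compartments did.

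The order of means was interstitial stroma (6.93), stroma close to follicles (6.6), theca (6.22) and tunica albuginea (5.55), and no neighbours in it differed beyond their spread (limma adjusted p of 0.90, 0.44 and 0.15). The F test passed (limma adjusted p = 0.035), but no pair of compartments did. The largest gap, tunica albuginea minus interstitial stroma, was -1.38 ± 0.38 log2 units, a 2.59-fold difference (SE, limma adjusted p = 0.081). In this comparison 0 of 8 members passed, 3 had an unadjusted p under 0.05, and 1.52% of all clusters passed. Without replicate 1 or 3 of stroma close to follicles, arrays that enter only through the common spread, the limma adjusted p of that gap was 0.039 and 0.029. The F test lost its call without interstitial stroma replicate 1, 2 or 4 (limma adjusted p of 0.057, 0.073 and 0.07) and without tunica albuginea replicate 1 or 3 (0.064 and 0.11).

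Vessel markers moved between the same compartments. PECAM1, an endothelial adhesion molecule, had means of 7.08 in theca, 4.88 in interstitial stroma, 4.4 in stroma close to follicles and 3.4 in tunica albuginea, and RGS5 stood at 8.23, 6.5, 5.03 and 3.73. Among the laser-captured compartments, 7 of 11 endothelial and 5 of 10 smooth muscle and pericyte markers had means in the order of AGTR1, and the other 4 and 5 did not. ERG, an endothelial transcription factor, had its highest mean of the 3 in tunica albuginea (6.33), and the smooth muscle gene TAGLN ran the opposite way (7.0, 7.5 and 7.95). How many of all clusters follow the order of AGTR1 was not counted, so the counts of 7 and 5 are description only. By limma, 4 endothelial markers were lower in tunica albuginea than in interstitial stroma and none higher. Over all clusters, 0.575% were lower and 0.945% higher in this comparison. Theca, highest in PECAM1 and RGS5, had a lower AGTR1 mean than both kinds of stroma, but neither difference passed. They were -0.71 from interstitial stroma and -0.38 from stroma close to follicles (limma adjusted p of 0.14 and 0.44). The part of vessels in the AGTR1 signal was not tested.

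AGTR1 was 1.05 ± 0.38 log2 units lower in tunica albuginea than in stroma close to follicles (SE, limma adjusted p = 0.16), and -1.42 with limma adjusted p = 0.038 without stroma close to follicles replicate 1. No member passed in this comparison, in which 3.8% of clusters did and 3 of 8 members had an unadjusted p under 0.05. Stroma close to follicles and interstitial stroma differed in no member either, with 0.0336% of clusters passing and 1 member, MME, at an unadjusted p under 0.05. Theca and the laser-captured mean differed in AGTR1 by -0.14 ± 0.27 (SE, limma adjusted p = 0.71), with a 95% interval of -0.70 to 0.42. Against interstitial stroma alone the difference was -0.71 ± 0.34 (SE, limma adjusted p = 0.14), and fitted on only these 2 groups it had limma adjusted p = 0.039.

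AGTR2 (Entrez Gene 407157), the second angiotensin II receptor, was near the median signal and varied more within compartments than between them. Theca read 4.7, 3.8, 4.5, 3.9, 3.4 and 5.9, interstitial stroma 2.9, 3.8, 4.4 and 4.6, stroma close to follicles 3.3, 3.3, 4.0 and 3.5, and tunica albuginea 4.8, 3.2, 4.1 and 3.9. All groups overlapped. The highest value of all was that of theca replicate 6, and the same array was also highest of the theca arrays for AGTR1 (6.7) and shared the highest value for ANPEP (5.5).

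The mean in theca (4.37 ± 0.89, SD, n = 6) exceeded that of the other compartments by 0.55 ± 0.33 (SE, limma adjusted p = 0.19). The 95% interval of -0.13 to 1.23 leaves room for a difference of more than 2-fold in the direction of theca. The descending order was theca, tunica albuginea (4.0), interstitial stroma (3.93) and stroma close to follicles (3.53), with limma adjusted p between 0.54 and 0.97 for neighbours.

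MAS1 (Entrez Gene 783010), the receptor of angiotensin 1-7, had values of 3.1 to 3.8 on all 18 arrays, with no compartment apart. Its means were 3.3 ± 0.18 (SD, n = 6) in theca, 3.55 in both kinds of stroma and 3.45 in tunica albuginea. The difference of theca from the mean of the others was -0.22 ± 0.11 (SE, limma adjusted p = 0.14). Without interstitial stroma replicate 1, the lowest of that group at 3.1, it was -0.27 (limma adjusted p = 0.045). The difference from interstitial stroma, -0.25 with all arrays, was then -0.40 (limma adjusted p = 0.048).

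**Figure D2:**
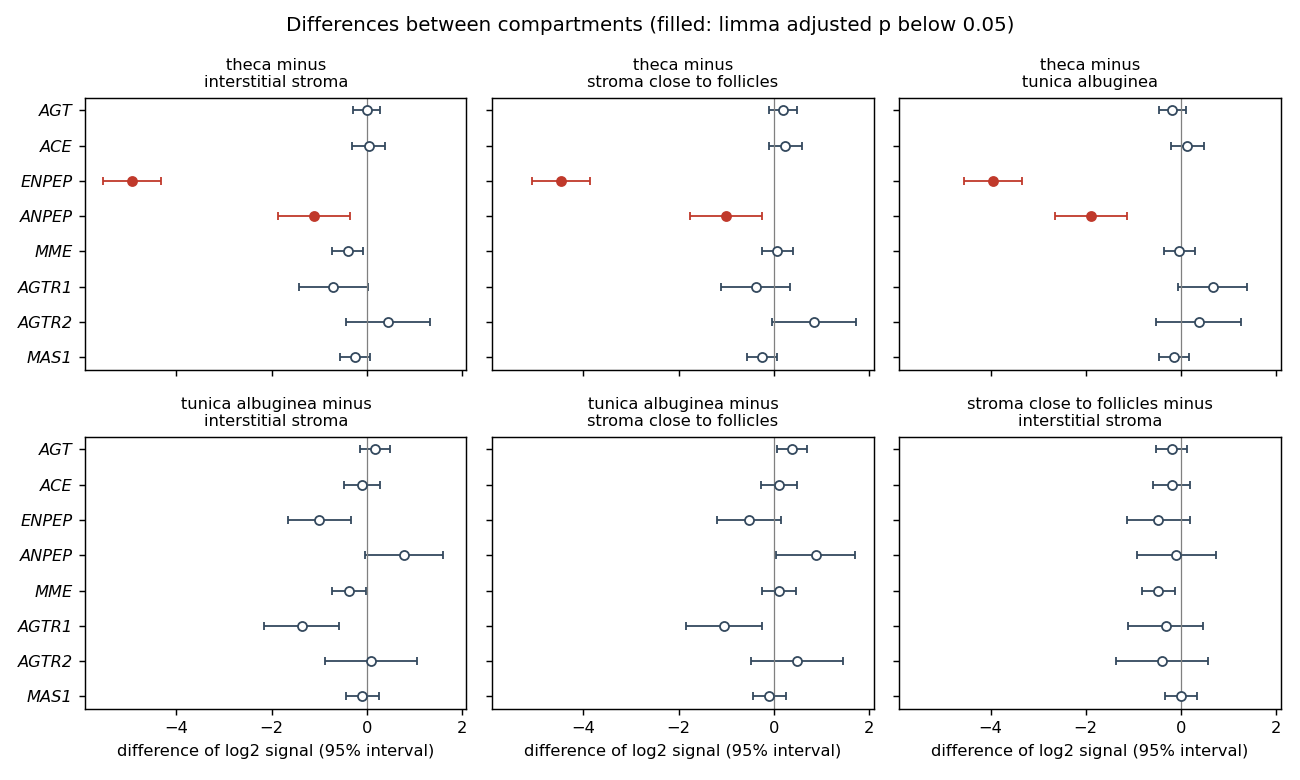
Difference of log2 signal (horizontal axis) for each of the 8 genes (vertical axis) in the 6 comparisons of 2 compartments, with 95% intervals from limma. Filled red points have an adjusted p below 0.05: only ENPEP and ANPEP, in the 3 comparisons with theca, both to the left of 0.

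The wider set of genes around these members was read from lists of 59 genes, 53 of them measured and 6 not analysed here. They cover other enzymes that form or cut angiotensins, other aminopeptidases of the M1 family (that of ENPEP and ANPEP) and of the M13 family (that of MME), receptor partners, and the kinin, apelin, natriuretic, endothelin and tachykinin peptides with their receptors. Against the laser-captured mean, 15 were higher in theca and 11 lower, together 49.1% beside 41.9% of all clusters (19.6% higher and 22.2% lower), with a median of -0.04 as over all clusters. In tunica albuginea 2 were higher and 1 lower than in interstitial stroma, together 5.7% beside 1.52% of clusters (0.945% higher and 0.575% lower). Against stroma close to follicles 3 were higher and 2 lower, together 9.4% beside 3.8% of clusters (1.85% higher and 1.95% lower). Between the 2 kinds of stroma none passed by limma, and 7 of 53 had an unadjusted p under 0.05.

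Of 8 other enzymes that cut angiotensins, 3 were higher in theca than in the mean, and 1 was lower. Together this was 50%, beside 41.9% of all clusters (19.6% higher and 22.2% lower). Prolyl endopeptidase (PREP), which can make angiotensin 1-7, was higher by 0.83 ± 0.15 (SE, limma adjusted p = 2e-04), dipeptidyl peptidase 3 (DPP3) by 0.63 and neurolysin (NLN) by 0.38. DPP3 read 3.9 to 4.9 in theca and 3.4 to 4.0 on the laser-captured arrays, which background can give. The mast cell carboxypeptidase CPA3 had a difference of -1.19 ± 0.39 (SE, limma adjusted p = 0.021). It read 2.7 to 3.2 in theca, 3.1 to 5.8 in interstitial stroma and 3.7 to 5.0 in tunica albuginea. In stroma close to follicles it read 3.3, 2.7, 5.6 and 3.0. Cathepsin D (CTSD), a protease that can form angiotensins, did not pass against the mean (0.14, limma adjusted p = 0.25). Against interstitial stroma alone it passed by limma as higher in theca, by 0.38 log2 units.

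Of 9 other M1 aminopeptidases, 2 were higher and 2 lower in theca than in the mean, together 44.4% beside 41.9% of all clusters. TRHDE, the ectoenzyme that degrades thyrotropin-releasing hormone, was highest in the tunica albuginea. It read 4.9, 4.6, 5.7 and 5.9 there, against 2.1 to 2.4 in theca, 2.2 to 3.8 in interstitial stroma and 2.6 to 2.9 in stroma close to follicles, all below the median signal and none overlapping with tunica albuginea. The difference was 2.23 ± 0.29 log2 units from interstitial stroma (SE, limma adjusted p = 0.00048) and 2.48 ± 0.29 from stroma close to follicles (SE, limma adjusted p = 7.4e-05). With values under 4 set to 4, both differences were 1.28 (limma adjusted p of 0.0061 and 0.0034), and every alternative setting kept both calls. ERAP2, which trims peptides for antigen presentation, was higher in theca than the mean by 0.69 ± 0.23 (SE, limma adjusted p = 0.022), and lost that call without theca replicate 2 (0.059) or 3 (0.064). LTA4H, leukotriene A4 hydrolase, was lower in theca by 0.48 (limma adjusted p = 0.00043).

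Of 6 other M13 peptidases, ECE1 was higher in theca than in the mean, ECE2 and PHEX were lower and 3 did not pass. The share that passed was 50%, beside 41.9% of all clusters. PHEX read only 2.2 to 2.9 over all arrays, which background can give. ECE1, which activates endothelins, read 7.5 to 8.0 in theca and 5.8 to 6.8 elsewhere, so that the groups did not overlap (1.44 ± 0.13, SE, limma adjusted p = 1.4e-07). ECE2, a related enzyme, read 3.7 to 4.1 in theca, 4.1 to 4.7 in both kinds of stroma and 5.3 to 5.5 in tunica albuginea. Its excess in tunica albuginea was 1.0 ± 0.13 over interstitial stroma (SE, limma adjusted p = 0.00063) and 0.85 ± 0.13 over stroma close to follicles (SE, limma adjusted p = 0.0011). MME, of the same family, was below the median signal throughout.

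Among 7 measured receptor partners, 2 were higher and 2 lower in theca than in the mean, together 57.1% beside 41.9% of all clusters. ARRB1, a beta-arrestin that binds activated receptors including AGTR1, was higher by 1.34 ± 0.14 (SE, limma adjusted p = 4e-07), reading 5.0 to 5.4 in theca and 3.2 to 4.5 elsewhere. The G protein genes GNA11 (-0.65) and GNAQ (-0.41), which couple AGTR1 to phospholipase C, were lower, and the phospholipase gene PLCB1 was higher (0.47). Of the 5 kinin and apelin genes, the apelin receptor APLNR, known from endothelium, was higher in theca by 1.93 ± 0.23 (SE, limma adjusted p = 2.9e-06). It read 2.6 to 3.2 on the laser-captured arrays, which background can give, and with values under 4 set to 4 the difference was 0.93 (limma adjusted p = 0.001). The bradykinin receptor BDKRB2 was higher in tunica albuginea than in stroma close to follicles by 0.9 ± 0.22 (SE, limma adjusted p = 0.03), at a level of 3.63 that background can give.

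Natriuretic and endothelin genes, whose peptides are substrates of neprilysin or products of ECE1, had 5 of 11 higher and 3 lower in theca than in the mean. Together this was 72.7%, beside 41.9% of all clusters (19.6% higher and 22.2% lower). Apart from EDNRA, EDNRB, NPR2 and NPR3, these genes read at or below the median signal of 4.1 on every array, which background can give. The endothelin receptor EDNRA read 6.3 to 7.9 in theca, 4.8 to 6.1 in interstitial stroma, 4.7 to 5.4 in stroma close to follicles and 3.2 to 4.3 in tunica albuginea. It was higher in theca than in the mean by 1.94 ± 0.24 (SE, limma adjusted p = 4.9e-06). Its level in tunica albuginea was below that in interstitial stroma by 1.78 ± 0.34 (SE, limma adjusted p = 0.011), and that adjusted p was 0.05049 without interstitial stroma replicate 1 and 0.062 with values under 4 set to 4. Tunica albuginea was also below stroma close to follicles by 1.33 ± 0.34 (SE, limma adjusted p = 0.038), and this call was lost, with adjusted p of 0.074 to 0.11, without replicate 1, 2 or 3 of that stroma or replicate 1 or 4 of tunica albuginea, and at 0.18 with values under 4 set to 4.

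The natriuretic clearance receptor NPR3 was higher in theca than in the mean by 1.76 ± 0.22 (SE, limma adjusted p = 6e-06). Its means of 3.25 in stroma close to follicles and 2.75 in tunica albuginea can be background, and with values under 4 set to 4 the difference was 1.02 (limma adjusted p = 0.00028). NPR2, the receptor for C-type natriuretic peptide, was lower in theca by 1.28 ± 0.18 (SE, limma adjusted p = 2.4e-05). EDNRB passed the F test (limma adjusted p = 0.021), lost without tunica albuginea replicate 1 (0.062) or 2 (0.054), with 3.4 to 3.6 in tunica albuginea and 3.5 to 5.8 elsewhere. Of 5 tachykinin genes, TACR1, a receptor whose ligands neprilysin degrades, was lower in theca than in the mean by 0.6 ± 0.19 (SE, limma adjusted p = 0.016), below the median signal in all compartment means. That call was lost with values under 4 set to 4 (-0.03, limma adjusted p = 0.82) and with the replicate block (0.12). TAC3, the neurokinin B precursor, was lower in tunica albuginea (3.0 to 4.0) than in stroma close to follicles (4.7 to 5.6) by 1.83 ± 0.34 (SE, limma adjusted p = 0.0048), and by 1.13 with values under 4 set to 4 (limma adjusted p = 0.055).

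**Figure D3:**
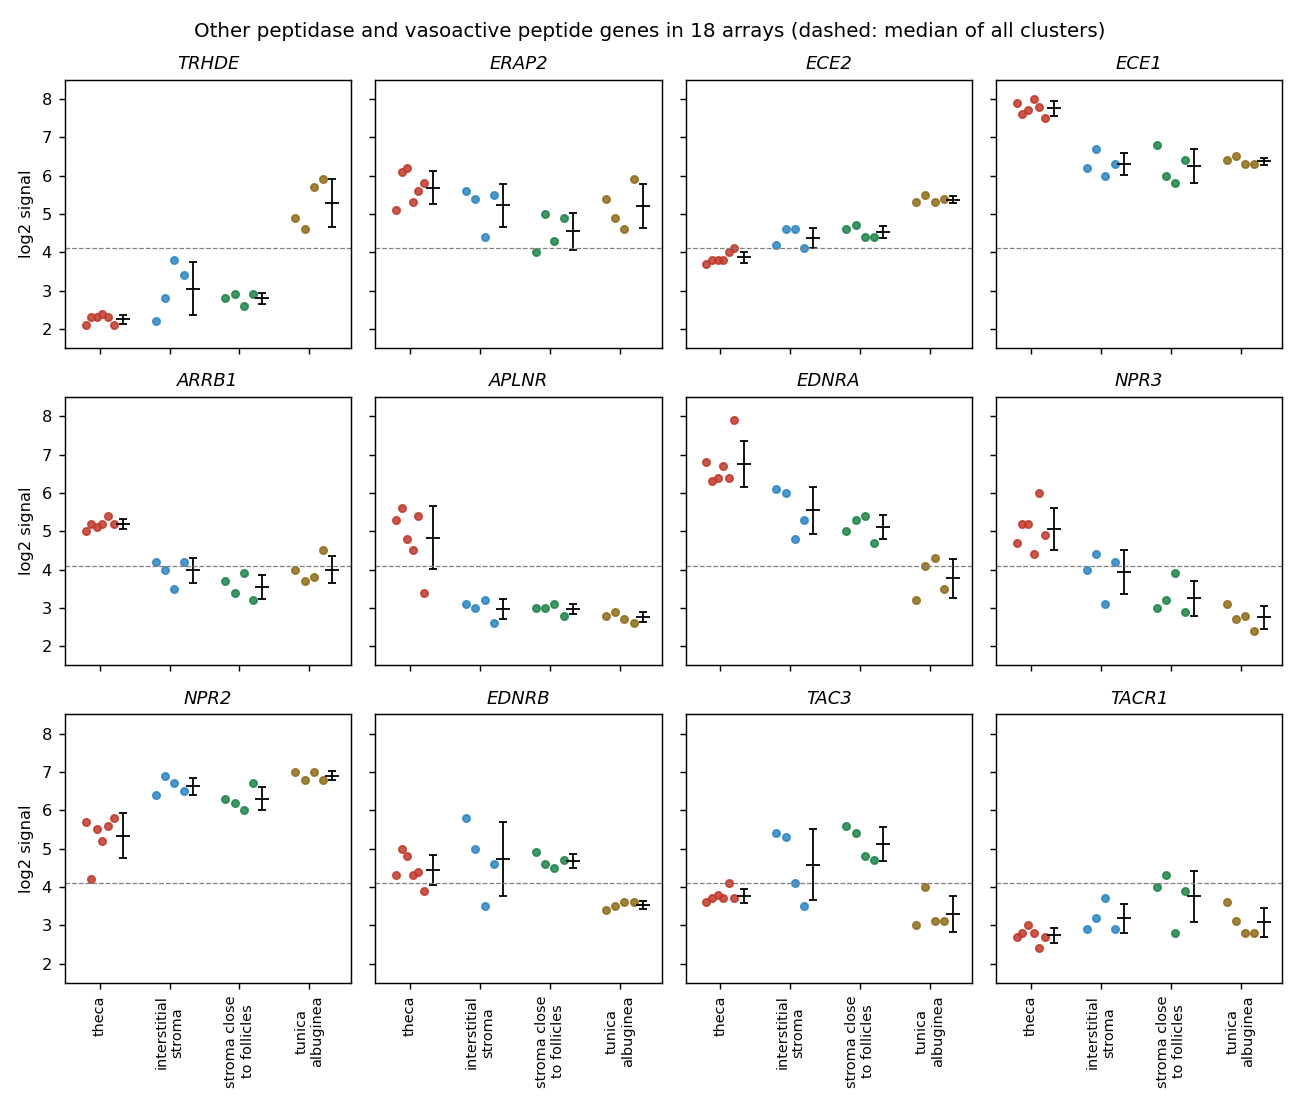
Log2 signal (vertical axis) on 18 arrays, by compartment (horizontal axis), of 12 listed genes that passed the F test and whose compartment means span at least 1 log2 unit. Points are arrays, bars are the mean ± SD (n = 6 for theca, n = 4 for the others) and the dashed line is the median of all clusters, 4.1. TRHDE and ECE2 are highest in tunica albuginea, at 4.6 to 5.9 and 5.3 to 5.5, and ECE1, ARRB1, EDNRA, NPR3 and APLNR have their highest means in theca.

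For ENPEP, ANPEP and AGTR1, which passed the F test with compartment means at least 1 log2 unit apart, the genes of most similar pattern were found among 18009 others. Likeness was the root mean square difference over the 18 arrays after each gene's own mean was subtracted, and is a description of genes picked for it. Nearest to ENPEP, whose own root mean square deviation was 2.17, were NUPR1, a stress-induced nuclear protein, at 0.55, MUSTN1, known from muscle and cartilage, at 0.61 and the microRNA gene MIR99A at 0.65. All 3 had one sharp step between theca and the rest, with means of 4.67, 6.27 and 3.63 in theca and of at least 9.38, 10.55 and 7.3 in the other compartments.

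Nearest to ANPEP (own deviation 0.89) were PAM, which amidates the ends of peptide hormones, at 0.46, FGD4 at 0.47 and the clock-linked nuclear receptor NR1D2 at 0.48. Their means were lowest in theca, about level in both kinds of stroma and highest in tunica albuginea, and PAM, for example, had means of 7.07, 7.95, 7.98 and 8.7. Nearest to AGTR1 (own deviation 0.71) were the basement membrane collagen COL4A5 at 0.42, CRYBG3 at 0.42 and the endothelial tight junction gene CLDN5 at 0.44. CLDN5 read 5.0 to 5.8 in theca, 5.2 to 6.2 in interstitial stroma, 4.8 to 5.7 in stroma close to follicles and 3.5 to 4.8 in tunica albuginea. Set against the deviation of 0.71 of AGTR1 itself, a distance of 0.42 is a loose likeness, and COL4A5 did not pass the F test (limma adjusted p = 0.14).

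**Figure D4:**
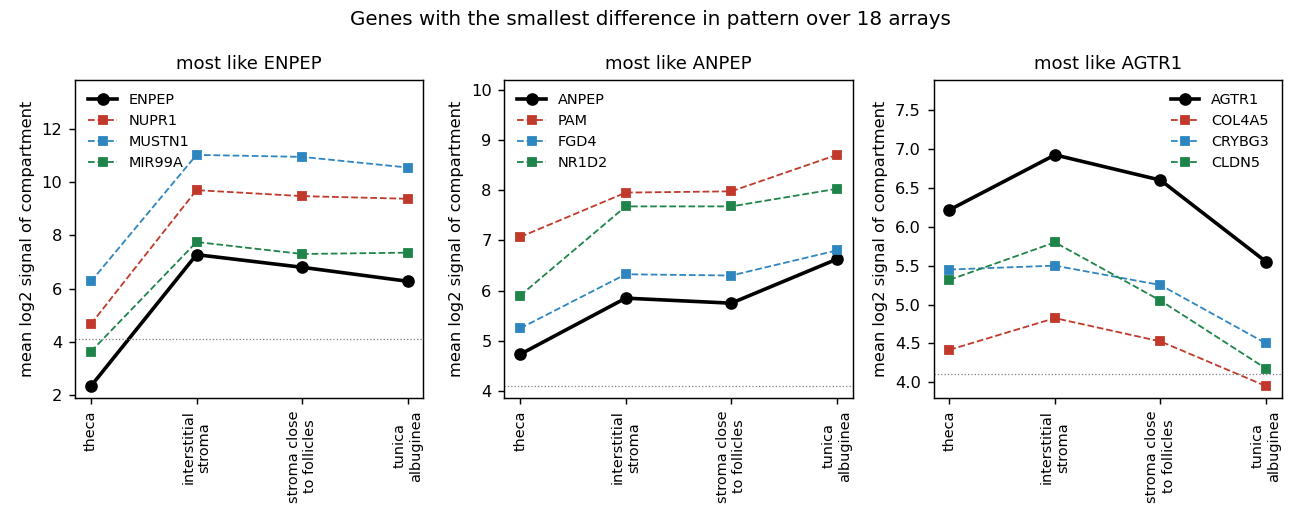
Mean log2 signal (vertical axis) in the 4 compartments (horizontal axis) of ENPEP, ANPEP and AGTR1 (black) and of the 3 genes most like each (coloured), with the median of all clusters as a dotted line. The genes beside ENPEP share its step between theca and the rest, those beside ANPEP are highest in tunica albuginea, and those beside AGTR1 are lowest there.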

How the data were processed

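The deposited values are log2 signals per transcript cluster, made by the authors with RMA and Partek 6.5, per the submitters' processing notes. The values are rounded to 1 decimal, with the same median on all 18 arrays, so a change shared by most genes would not show. Of 26773 clusters, 18457 carried 1 gene symbol, 688 several and 7628 no entry in the array's annotation table, and the last 2 kinds were tested but not named. Of 18010 named genes, 401 had more than 1 cluster, and the brightest over all arrays stood for them.

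Limma 3.58.1 in R 4.3.3 was fitted to all 18 arrays with 1 mean per compartment and no covariate, two-sided, with Benjamini-Hochberg adjustment over all clusters. SE is the moderated standard error, SD the spread of arrays in a compartment. The procedure was run on simulated data to check the code, which says nothing of how these samples were pooled or collected. Groups came from sample titles. A further label calling every sample thecal was not used. Whether pools shared animals is not known, and then p-values measure only the spread between these arrays. The number of arrays limits precision.

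The members, lists and rule for named genes were chosen with earlier results of these data known. The rule named all members, up to 4 genes per list by the span of compartment means among those past the F test with a span of at least 1, and 3 most similar genes per member of that kind. Other listed genes are named as examples of counts and were chosen after their values were seen. Marker lists covered theca, endothelial, smooth muscle and pericyte, fibroblast, immune, mast, granulosa, surface epithelial, oocyte and red blood cells. The means of the mast, surface epithelial and red blood cell lists lay between 3.4 and 4.75, 3.23 and 3.8, and 3.02 and 3.66 over all arrays. Alternatives changed the samples fitted, moderation, filter, floor, weights, block, scaling, cluster choice and replicates.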

Additional observations from a re-analysis of the deposited data

Results flagged for a closer look

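In 80 groups of 1 gene in 1 compartment, 5 arrays stood apart from the others of their compartment by Dixon's criterion, and chance marks about 1 in 20. ACE in interstitial stroma replicate 1 read 4.7 against 4.3 on the other 3 arrays. MME in stroma close to follicles replicate 1 read 2.7 against 2.5 on the other 3, below the median signal. ERAP2 in interstitial stroma replicate 3 was low at 4.4, with the next array at 5.4. EDNRA in theca replicate 6 was high at 7.9, with the next at 6.8, and this array also had the highest AGTR2 value, 5.9. TAC3 in tunica albuginea replicate 2 was high at 4.0, with the next at 3.1. Rounding to 1 decimal makes groups of equal values, as for ACE and MME, pass this criterion with small gaps.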

How the results depend on the processing

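No called difference of a member changed direction under any of the 9 alternatives or the 18 fits that left out 1 array. ENPEP was lower in theca in all of them, with differences of -4.55 to -2.78 log2 units from the mean of the other compartments. The number of members called against interstitial stroma went from 2 to 1 with values under 4 set to 4, and against stroma close to follicles from 2 to 1 with that floor and with only the groups compared, ANPEP being the one lost each time. With 1 array left out these counts ranged from 1 to 3 and from 1 to 2. Without interstitial stroma replicate 1 the count of 2 held MAS1 in place of ANPEP. Between tunica albuginea and interstitial stroma, and between tunica albuginea and stroma close to follicles, leaving out 1 array gave 0 to 1 members in place of 0. Replicate numbers were not treated as pairing in the main fit, because same-numbered arrays did not deviate together in every pair of compartments. Between interstitial stroma and tunica albuginea they did so weakly, with r of 0.095, 0.097, 0.129 and 0.145. In the other pairs of compartments r lay between -0.048 and 0.076. Whether same-numbered arrays share animals is not known. With the replicate block, 1 member was called between tunica albuginea and stroma close to follicles in place of 0, ANPEP (0.88, limma adjusted p = 0.021), and AGTR1 lost its F test (0.086). AGTR1 also lost it with the floor at 4 (0.093). MME passed against interstitial stroma with an intensity trend (limma adjusted p = 0.045), array weights (0.029) and a common 75th percentile (0.027), and MAS1 passed against the mean with the last (0.032). Over all clusters, the floor at 4 called 6028 against tunica albuginea in place of 9207, 7279 against the mean in place of 11206, and 6455 by the F test in place of 9743. With only the groups compared, calls fell from 407 to 204 between tunica albuginea and interstitial stroma and from 1017 to 434 between tunica albuginea and stroma close to follicles, and the floor gave 253 and 589. Leaving out interstitial stroma replicate 1, 2 or 4 or tunica albuginea replicate 3 gave 219, 246, 258 and 224 in the former, and leaving out replicate 1 or 2 of stroma close to follicles or tunica albuginea replicate 3 gave 652, 645 and 627 in the latter. Between the 2 kinds of stroma 9 clusters were called, with 0 when only the groups compared were fitted, 3 without the dimmest clusters, 5 with the block, and 0 to 152 with 1 array left out (152 without replicate 3 of stroma close to follicles, 29 without interstitial stroma replicate 3). Without the 40% dimmest clusters, AGT, MME and MAS1 were not tested. The listed pathway genes were put through the same alternatives after the data were seen: with the floor at 4, 17 of 53 were called between theca and the mean in place of 26, and TACR1 was no longer among them (-0.03, limma adjusted p = 0.82). With the replicate block, TACR1 and ERAP2 lost their calls between theca and the mean (limma adjusted p of 0.12 and 0.075).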
